A study of Mus musculus with 5 samples.

Results

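The genes of the hypoxia response and of glycolysis were examined in tumour epithelial cells of mouse prostates, as a set of 36 named genes. A gene was measured where the platform annotation gave a probe set its symbol and no other, which held for 33 of the 36 genes with 73 probe sets, out of 18193 genes so measured. Of these 33, 13 belong to the hypoxia response and 20 to glucose uptake, glycolysis and lactate handling. Bnip3l, Gpi1 and Eno1 had no such probe set and were not analysed here. The cells came from 5 C57BL/6 mice of 2 genotypes and were isolated from dissociated tumours with EpCAM beads, with all steps on ice. The 3 nDKO mice carried floxed alleles that include Smad4 under the prostate-specific Probasin driver, a genotype that is not given in full here, and were 15.86, 10.71 and 10.71 weeks old. The 2 nTKO mice carried a floxed Pygo2 as well and were 31.43 and 16 weeks old. Pygo2 encodes a chromatin reader and co-activator of beta-catenin. By their labels all 5 mice thus share the nDKO deletions, no normal prostate was compared, and the driver is meant to act in prostate epithelium. Arrays are named below by genotype and replicate number, as in nTKO 1, and values are log2 signals unless another scale is given.

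Cells sense oxygen through prolyl hydroxylases, which mark the alpha subunits of the hypoxia-inducible factors (HIF) for degradation while oxygen is present. When oxygen falls, the alpha subunits persist, pair with a stable partner and switch on genes for glucose uptake, glycolysis, blood vessel growth, acid export and the removal of mitochondria. HIF-1 alpha is regulated mainly through its protein, so the level of the Hif1a transcript is not a reading of HIF activity. Glycolysis splits glucose into pyruvate, which enters mitochondria or is reduced to lactate and exported, and many tumours run it also with oxygen present. Normal prostate luminal cells are known for making and secreting citrate rather than for a high rate of glycolysis.

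The arrays had medians between 4.94 and 4.98. Pygo2, the gene that sets the genotypes apart, was at 8.65, 8.62 and 8.72 in nDKO and at 7.30 and 6.35 in nTKO cells, lower in both nTKO mice. Smad4, labelled as floxed in all mice, was bright on every array, at 9.63, 9.88 and 9.88 in nDKO and at 9.76 and 10.37 in nTKO cells, so its signal does not check that deletion. Epcam lay between 12.94 and 13.48 and Krt8 between 12.96 and 13.55 on the 5 arrays, as for epithelial cells, while Cd3e (5.51 to 5.62), Pecam1 (2.95 to 3.71) and Col1a1 (4.52 to 4.65) were dim. Of the 6 fibroblast markers Dcn was the bright one, at 6.41 to 9.52. The 5 seminal vesicle markers were all lowest in nDKO 1, with a summed signal of 13.05 there and 14.60 to 15.70 elsewhere, and their part in the results was not tested. Leukocyte transcripts were present, with the macrophage gene C1qb between 7.76 and 9.47. S100a8 of the neutrophil list lay between 8.30 and 12.79, and which cells gave its signal was not tested. Pairs of arrays with nDKO 1 or nTKO 1 correlated less (Pearson 0.9866 to 0.9906 across probe sets) than pairs of the other 3 arrays (0.9949 to 0.9961). Between nTKO and nDKO, limma called 0 of 18193 genes (0%) at an adjusted p of 0.05, and 689 genes (3.79%) were under 0.05 before adjustment. No member can be called changed by genotype, and what follows describes levels and differences with their errors. In a bulk sample, fewer cells of a type and less RNA per cell cannot be told apart.

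As a group, the members had slightly more signal in nTKO cells in the deposited values, which for the glycolysis genes did not hold after median centring. Of the 33, 25 had a higher mean in nTKO and 8 a lower one (75.8% higher, against 60.0% of all genes), and the median log2 fold change was 0.078 against 0.028 over all genes. The hypoxia response genes had 8 of 13 higher with a median of 0.19, and the glycolysis genes 17 of 20 higher with a median of 0.047. With the mean of all probe sets of a gene in place of the brightest, the hypoxia median was 0.051 and the glycolysis median 0.046. After median centring of the arrays, the hypoxia median was 0.145 and the glycolysis median -0.0017. There, 8 members changed from higher to lower, all of them glycolysis genes. The hypoxia median was -0.07 and the glycolysis median -0.043 without both nDKO 1 and nTKO 1, and once log2 age entered the fit they were -0.032 and -0.056. Both nTKO mice were older than every nDKO mouse, so age and genotype cannot be separated well with these arrays. Values from the fit with age, here and below, show how a difference depends on the model and are not effects of genotype freed of age. The median of the hypoxia genes was 0.02 without nTKO 1 and 0.39 without nTKO 2, and that of the glycolysis genes 0.012 and 0.17. The groups did not overlap for 6 of the 33 members (18.2%), beside 12.8% of all genes and 16.3% of genes at or above the median level. Bnip3, Vegfa, Pfkfb3 and Ldha lay above in nTKO (8.13% of all genes), and Epas1 and Pfkfb4 below (4.71%). Of all genes, 26.0% had the same value on 3 or more arrays, which lowers such shares, and no member did. An unadjusted limma p under 0.05 was found for 3 members (9.09%, beside 3.79% of all genes). These were Bnip3, Vegfa and Pfkfb3, all higher in nTKO (2.46% of all genes), and 0 members were lower (1.33%). With 10 ways to split the 5 arrays, the smallest p that an exact permutation test of 1 gene could give is 0.1.

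**Figure D1:**
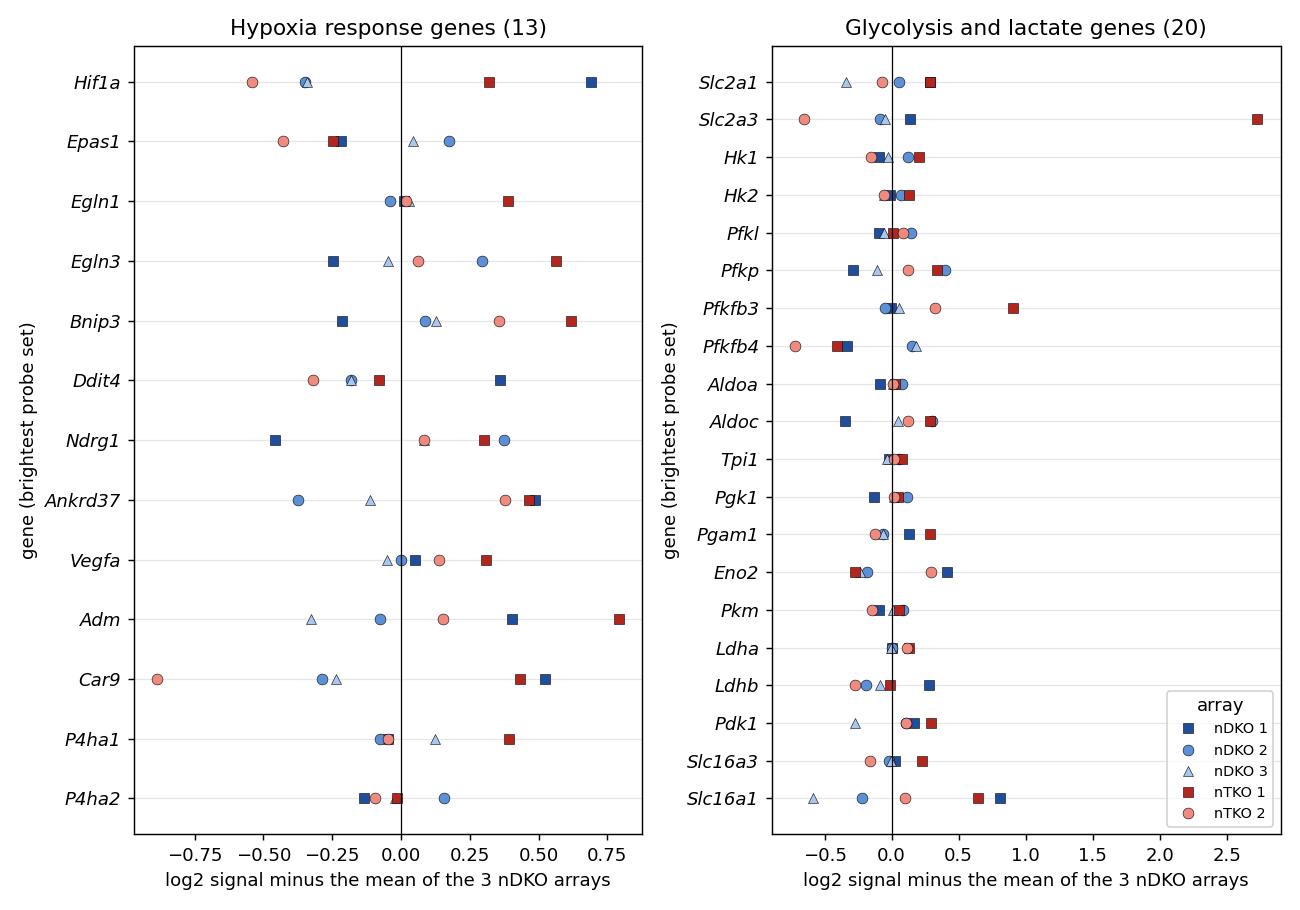
Each point is the log2 signal of 1 array minus the mean of the 3 nDKO arrays, for the 13 hypoxia response genes (left) and the 20 glycolysis and lactate genes (right), blue for nDKO and red for nTKO. Slc2a3 stands far to the right in nTKO 1 alone, while Aldoa, Tpi1 and Ldha lie close to 0 on all arrays.

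Promoter sequences of 6 members are given to show where the core of the hypoxia response element, the site bound by HIF, lies in them. They are Bnip3, Pfkfb3, Ldha and Pfkfb4, whose groups did not overlap, and Car9 and Slc16a1, which were high on nDKO 1 and nTKO 1. Other members with these patterns are not shown, among them Vegfa, whose groups did not overlap either. All 6 shown hold the core, so they do not show how common it is. Each line holds the 250 bases before the transcription start in RefSeq, build GRCm38.p6, read 5′ to 3′ on the gene's strand. Capitals mark ACGTG and GCGTG and, for the other strand, CACGT and CACGC. The palindrome CACGTG holds a match on both strands and counts as 2.
Bnip3, chr7:138909507-138909756, minus strand: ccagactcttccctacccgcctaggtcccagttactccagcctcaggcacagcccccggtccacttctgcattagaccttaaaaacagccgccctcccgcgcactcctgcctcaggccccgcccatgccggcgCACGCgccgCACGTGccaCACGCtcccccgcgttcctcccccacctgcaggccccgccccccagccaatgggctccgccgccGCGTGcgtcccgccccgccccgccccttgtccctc
Pfkfb3, chr2:11553930-11554179, minus strand: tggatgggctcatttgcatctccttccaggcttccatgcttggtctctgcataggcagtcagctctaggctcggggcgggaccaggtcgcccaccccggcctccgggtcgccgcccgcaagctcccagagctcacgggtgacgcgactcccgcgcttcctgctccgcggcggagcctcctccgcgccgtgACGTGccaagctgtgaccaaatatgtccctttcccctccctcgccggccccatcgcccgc
Ldha, chr7:46845554-46845803, plus strand: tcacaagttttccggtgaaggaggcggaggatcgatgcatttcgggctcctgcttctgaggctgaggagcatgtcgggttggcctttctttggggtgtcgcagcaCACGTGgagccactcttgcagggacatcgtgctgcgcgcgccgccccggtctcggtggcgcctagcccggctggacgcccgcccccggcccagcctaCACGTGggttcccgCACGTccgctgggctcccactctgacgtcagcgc
Pfkfb4, chr9:108991652-108991901, plus strand: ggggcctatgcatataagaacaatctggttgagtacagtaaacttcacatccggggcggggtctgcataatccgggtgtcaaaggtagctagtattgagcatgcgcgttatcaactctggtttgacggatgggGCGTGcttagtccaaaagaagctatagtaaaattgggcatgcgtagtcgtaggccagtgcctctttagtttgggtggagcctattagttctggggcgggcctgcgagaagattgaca
Car9, chr4:43506776-43507025, plus strand: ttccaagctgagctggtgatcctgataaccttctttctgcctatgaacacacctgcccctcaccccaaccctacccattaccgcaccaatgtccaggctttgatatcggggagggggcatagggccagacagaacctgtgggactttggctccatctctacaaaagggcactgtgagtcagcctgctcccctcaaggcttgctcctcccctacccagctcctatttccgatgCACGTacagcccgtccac
Slc16a1, chr3:104638414-104638663, plus strand: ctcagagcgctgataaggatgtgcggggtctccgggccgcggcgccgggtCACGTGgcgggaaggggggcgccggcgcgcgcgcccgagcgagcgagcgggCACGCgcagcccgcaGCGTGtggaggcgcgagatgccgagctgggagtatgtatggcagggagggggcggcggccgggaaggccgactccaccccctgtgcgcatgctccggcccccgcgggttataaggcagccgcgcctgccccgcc
Bnip3 and Ldha held 5 matches each and Slc16a1 held 4, while Pfkfb3, Pfkfb4 and Car9 held 1. In Car9 the match began 18 bases before the start. A match was found for 25 of the 32 members with a promoter entry, that is 10 of 11 hypoxia genes and 15 of 21 glycolysis genes (Gpi1 and Eno1 included). The share was 49.8% of 14451 genes measured on the arrays and 38.6% of all 27024 genes of the promoter table. Many members are listed here because they are known HIF targets, so this share is a description and not an independent result. Vegfa had no match in its window, and Slc2a3, Bnip3l, Ndrg1 and Epas1 had no entry. The motif was found at Bnip3, higher in nTKO, and at Pfkfb4, lower in nTKO, alike.

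Of the oxygen-sensing genes, Epas1 was lower in both nTKO mice, and Hif1a followed single mice rather than genotype. Hif1a, which encodes the alpha subunit of HIF-1, was at 11.99, 10.95 and 10.96 in nDKO and at 11.62 and 10.76 in nTKO cells. It was thus about 1 log2 unit higher in nDKO 1 and well above the rest in nTKO 1, in both genotypes, and the groups overlapped (log2 fold change -0.11, SE 0.46, limma adjusted p = 0.975). Its next 2 probe sets were also highest on nDKO 1 and nTKO 1, at 8.91, 8.12, 8.12, 8.91 and 7.90 and at 8.36, 6.75, 6.63, 7.45 and 6.60 on the arrays from nDKO 1 to nTKO 2, and a dim one (4.57 to 4.79) did not. The difference between genotypes was 0.24 without nDKO 1, 0.32 without nTKO 2, -0.54 without nTKO 1, -1.14 once log2 age entered the fit and -1.23 between nTKO 2 and nDKO 1, the mice of like age. That pair is 1 array of each genotype. These arrays also had the lowest and the highest summed signal of squamous markers, 10.94 in nTKO 2 and 14.50 in nDKO 1, whose part was not tested. Epas1, which encodes the alpha subunit of HIF-2, was at 9.30, 9.69 and 9.56 in nDKO and at 9.27 and 9.09 in nTKO cells. Both nTKO values lay below every nDKO value, nTKO 1 by a narrow margin, with a log2 fold change of -0.34 (SE 0.14, limma adjusted p = 0.853). Its second probe set gave -0.23, also without overlap, and the difference lay between -0.54 and -0.25 in the refits that had a test. Egln1 and Egln3 encode prolyl hydroxylases that mark HIF alpha, and both are themselves induced by HIF. Egln1 was at 9.01, 8.96 and 9.03 in nDKO and at 9.39 and 9.02 in nTKO cells, high on nTKO 1 alone, and its difference of 0.21 was 0.02 without that array and -0.032 once log2 age entered the fit. Egln3 was at 10.56, 11.10 and 10.76 in nDKO and at 11.37 and 10.87 in nTKO cells, a difference of 0.31 (SE 0.24) that was 0.063 without nTKO 1 and 0.56 without nTKO 2.

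Among the target genes that act on mitochondria and stress signalling, Bnip3 had the clearest difference. Bnip3, a mitophagy receptor of the outer mitochondrial membrane, was at 10.51, 10.81 and 10.85 in nDKO and at 11.34 and 11.08 in nTKO cells. Both nTKO mice lay above every nDKO mouse, and the log2 fold change was 0.49 (SE 0.15, 1.40-fold, limma adjusted p = 0.853, unadjusted 95% interval 0.079 to 0.89). It was 0.25 without nDKO 1 and nTKO 1 together and 0.36 without nTKO 1. Ankrd37, an ankyrin repeat gene known as a HIF target, was at 7.47, 6.61 and 6.87 in nDKO and at 7.45 and 7.36 in nTKO cells. The value of nDKO 1 was as high as those of the nTKO mice, so the groups overlapped (0.42, SE 0.28), and the difference was 0.67 without nDKO 1, 0.014 once log2 age entered the fit and -0.11 between the mice of like age, nTKO 2 and nDKO 1. Ddit4, which restrains mTORC1, was at 11.78, 11.24 and 11.24 in nDKO and at 11.34 and 11.10 in nTKO cells. It was highest in nDKO 1, and its difference of -0.20 was -0.02 without that array, -0.32 without nTKO 1 and -0.61 once log2 age entered the fit. Ndrg1, a stress-induced growth regulator, was lowest in nDKO 1 (9.07) and highest in nDKO 2 (9.90), with 9.61 in nDKO 3 and 9.83 and 9.61 in nTKO cells. All 5 of its probe sets were lowest in nDKO 1 and highest in nDKO 2, with fold changes from -0.11 to 0.19 on the log2 scale. The difference of the brightest was -0.035 without nDKO 1, 0.083 without nTKO 1 and 0.38 without nDKO 2.

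Secreted and surface targets were split between a small difference between the groups for Vegfa and large ones between mice for Adm and Car9. Vegfa, the main angiogenic growth factor, was at 8.55, 8.50 and 8.45 in nDKO and at 8.81 and 8.64 in nTKO cells. The groups were separate by a narrow gap, with a log2 fold change of 0.23 (SE 0.078, 1.17-fold, limma adjusted p = 0.853). It was 0.14 without nTKO 1 and 0.083 once log2 age entered the fit, and its second probe set gave 0.088 with overlap. Adm, the vasodilating peptide adrenomedullin, was at 7.50, 7.02 and 6.77 in nDKO and at 7.89 and 7.25 in nTKO cells, where nTKO 1 was highest and nDKO 1 next. Its difference of 0.47 (SE 0.31) was 0.15 without nTKO 1 and -0.22 once log2 age entered the fit, while its other probe set gave 0.42 without overlap. Car9, a membrane carbonic anhydrase that acidifies the cell surroundings, was at 9.11, 8.30 and 8.35 in nDKO and at 9.02 and 7.70 in nTKO cells. The nTKO mice lay almost as far apart as the whole range of 1.41, one with the highest nDKO mouse and the other below all. Its log2 fold change was -0.23 (SE 0.51), 0.035 without nDKO 1, 0.43 without nTKO 2, -0.89 without nTKO 1 and -1.42 once log2 age entered the fit. P4ha1 and P4ha2 encode catalytic subunits of the collagen prolyl hydroxylase. P4ha1 differed by 0.17 (-0.047 without nTKO 1) and P4ha2 by -0.053, both within the spread between mice.

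For glucose uptake and its first step the groups overlapped in all 4 genes, and Slc2a3 was far higher on a single array. Slc2a1, the widely expressed glucose transporter GLUT1, was at 11.08, 10.85 and 10.45 in nDKO and at 11.08 and 10.72 in nTKO cells. The groups overlapped fully (0.11, 95% interval -0.53 to 0.74, unadjusted), and its 3 probe sets gave 0.11 to 0.18. Its sign was negative without nDKO 3 (-0.065), without nTKO 1 (-0.073) and once log2 age entered the fit (-0.32). Slc2a3, the high-affinity transporter GLUT3 of neurons and leukocytes, was at 5.70, 5.47 and 5.51 in nDKO and at 8.29 and 4.91 in nTKO cells. The value of nTKO 1 stood more than 2 log2 units above all others, and nTKO 2 was the lowest array. The log2 fold change of 1.04 (SE 1.06, limma adjusted p = 0.867) was -0.65 without nTKO 1 and 2.73 without nTKO 2. A second probe set showed the same with 6.56 in nTKO 1 against 3.46 to 4.33, and 2 dim ones (3.17 to 3.47) did not. Of 8 neutrophil markers listed, 6 were measured and 5 of these were also highest in nTKO 1. The log2 of the summed signal of the 6 reached 13.92 in nTKO 1, against 9.58 in nTKO 2 and 10.69 to 11.44 in the nDKO mice. That sum is mostly S100a8 and S100a9, at 12.79 and 12.94 in nTKO 1, while the other measured markers were at 5.48 to 7.80 there. The part of neutrophils in the Slc2a3 signal was not tested. Hk1 and Hk2, the hexokinases that trap glucose in the cell, differed by 0.023 (95% interval -0.36 to 0.41) and 0.035 (-0.20 to 0.27). The second probe set of Hk1 gave -0.37 with nTKO 1 lowest (6.51).

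In the upper part of glycolysis, the paired regulators Pfkfb3 and Pfkfb4 lay on opposite sides. Both make and remove fructose 2,6-bisphosphate, the activator of phosphofructokinase, and Pfkfb3 mostly makes it. Pfkfb3 was at 7.54, 7.50 and 7.60 in nDKO and at 8.45 and 7.87 in nTKO cells. The nDKO mice were close together and both nTKO mice above them, nTKO 1 by more, for a log2 fold change of 0.61 (SE 0.19, 1.53-fold, limma adjusted p = 0.853, unadjusted 95% interval 0.095 to 1.13). It was 0.32 without nTKO 1 and 0.26 once log2 age entered the fit, and its second, dim probe set (4.12 to 4.41) gave -0.068. Pfkfb4 was at 7.52, 8.0 and 8.03 in nDKO and at 7.44 and 7.13 in nTKO cells. Both nTKO mice lay below every nDKO mouse, nTKO 1 just below nDKO 1, with a log2 fold change of -0.57 (SE 0.21, 67.6% of the nDKO signal, limma adjusted p = 0.853) and a range of -0.89 to -0.41 over the refits that had a test. The catalytic subunits Pfkl and Pfkp of phosphofructokinase differed by 0.047 and 0.23 with overlap. Pfkp was lowest in nDKO 1 (8.81) and highest in nDKO 2 (9.50), and its 3 probe sets gave -0.23 to 0.23. The difference of Pfkp was 0.085 without nDKO 1, 0.12 without nTKO 1 and 0.43 without nDKO 2. The aldolases Aldoa (0.017, 95% interval -0.17 to 0.20) and Aldoc (0.21, SE 0.22) and the isomerase Tpi1 (0.047, -0.11 to 0.21) had overlapping groups. Aldoc was lowest in nDKO 1 (9.26) and highest in nDKO 2 (9.91) and nTKO 1 (9.90), and its difference was 0.03 without nDKO 1, 0.12 without nTKO 1 and 0.36 without nDKO 2.

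In the lower part of glycolysis the groups overlapped for all 4 measured enzymes, and the range over the arrays was 0.25 for Pgk1, 0.23 for Pkm and 0.41 for Pgam1. Pgk1, the first ATP-forming kinase of the pathway, was at 12.94, 13.19 and 13.09 in nDKO and at 13.12 and 13.09 in nTKO cells. Pgam1, a mutase, was at 11.65, 11.45 and 11.45 and at 11.80 and 11.39, and Pkm, pyruvate kinase, at 12.14, 12.32 and 12.24 and at 12.29 and 12.09. Their differences were 0.032 (95% interval -0.22 to 0.28), 0.078 (-0.34 to 0.50) and -0.043 (-0.31 to 0.22). Pgk1 and Pkm were highest in nDKO 2 and Pgam1 in nTKO 1, whereas the lowest array was nDKO 1 for Pgk1 and nTKO 2 for Pgam1 and Pkm. Eno2, the neuronal enolase, was dim on every array (3.43 to 4.12) and differed by 0.012, a value near the floor of the arrays.

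At the end of the pathway, Ldha had a small difference with almost no spread, and the lactate transporter Slc16a1 a large spread between mice. Ldha, the lactate dehydrogenase subunit that favours lactate formation, was at 12.44, 12.44 and 12.43 in nDKO and at 12.57 and 12.55 in nTKO cells. Both nTKO mice lay above every nDKO mouse, by a log2 fold change of 0.12 (SE 0.047, 1.09-fold, limma adjusted p = 0.853). It was 0.075 after median centring, and 0.11 to 0.15 in the other refits. Ldhb, the subunit that favours pyruvate, was at 7.67, 7.20 and 7.31 in nDKO and at 7.38 and 7.12 in nTKO cells. It was highest in nDKO 1, as were its other 3 probe sets, and its difference of -0.14 was -0.005 without nDKO 1, -0.27 without nTKO 1 and -0.50 once log2 age entered the fit. Pdk1, the kinase that keeps pyruvate out of mitochondria, was at 9.78, 9.72 and 9.34 in nDKO and at 9.91 and 9.72 in nTKO cells. Its lowest array was nDKO 3, and the difference of 0.20 (SE 0.17) was 0.065 without it, 0.11 without nTKO 1 and -0.037 once log2 age entered the fit. Slc16a3, the lactate exporter MCT4, was at 5.98, 5.93 and 5.95 in nDKO and at 6.18 and 5.79 in nTKO cells, with the nTKO mice on either side of the nDKO mice. Slc16a1, the lactate transporter MCT1, was at 8.25, 7.22 and 6.86 in nDKO and at 8.09 and 7.54 in nTKO cells. The 2 highest values came from nDKO 1 and nTKO 1, and the difference of 0.37 (SE 0.49) was 0.78 without nDKO 1, 0.10 without nTKO 1, 0.50 without both and -0.55 once log2 age entered the fit.

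**Figure D2:**
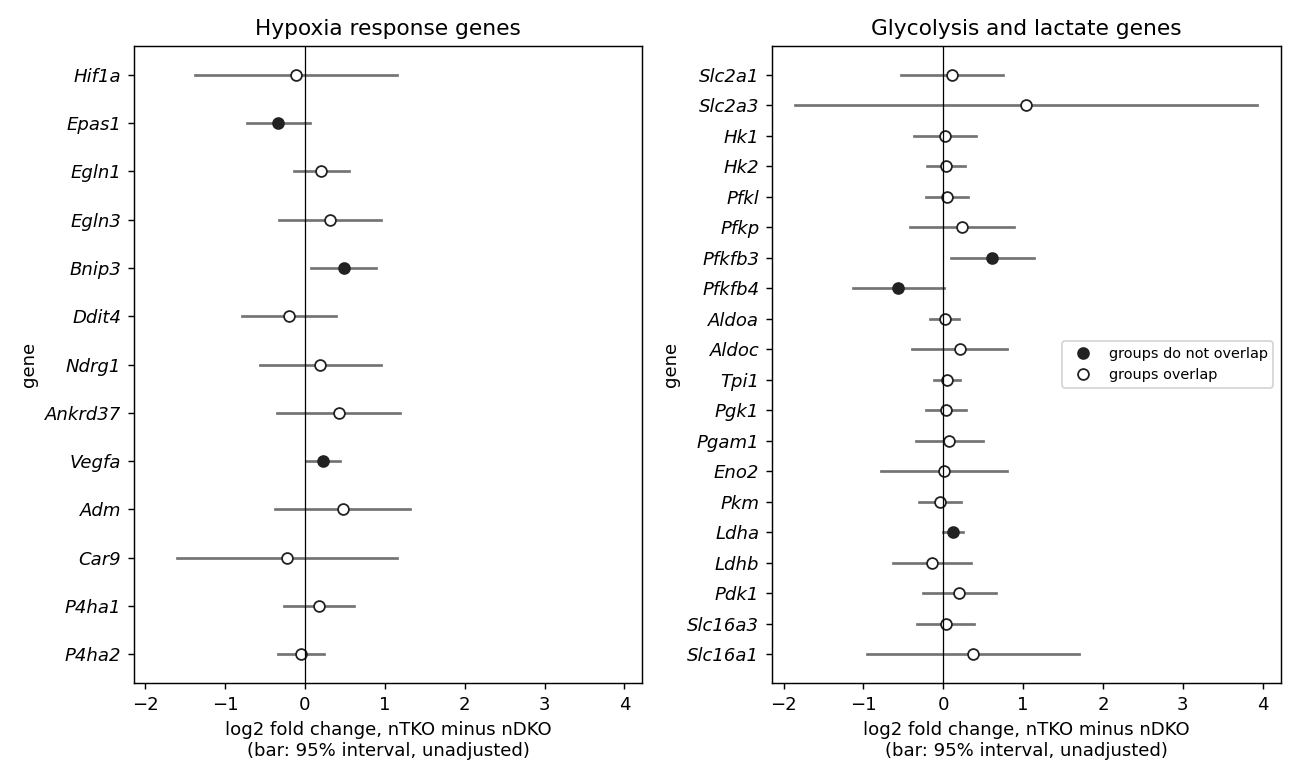
Log2 fold change of nTKO minus nDKO for each of the 33 measured members, with the unadjusted 95% interval of the limma fit as a bar and filled points where the groups do not overlap. The intervals of Bnip3, Vegfa and Pfkfb3 leave out 0, and that of Slc2a3 spans from -1.85 to 3.93.

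Probe sets of the same gene did not always give the same sign. Of 21 members with more than 1 probe set, 9 had all of them on one side of 0, namely Adm, Aldoc, Egln1, Egln3, Epas1, Pgk1, Slc16a1, Slc2a1 and Vegfa. The 2 probe sets of Egln1 differed by 0.005 and those of Egln3 by 0.082. The widest gaps were 1.04 for Slc2a3, 0.68 for Pfkfb3 and 0.52 for Pdk1. The lowest value of each came from a probe set with a mean log2 signal of 4.27 or less, though a brighter Pdk1 probe set with a mean of 7.57 also gave only 0.088 against 0.20 and 0.23. Pfkp (0.46), Hk1 (0.39) and Ldhb (0.35) had gaps between brighter probe sets as well. Bnip3, Ldha and Pfkfb4 had a single probe set, so their differences have no second reading.

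**Figure D3:**
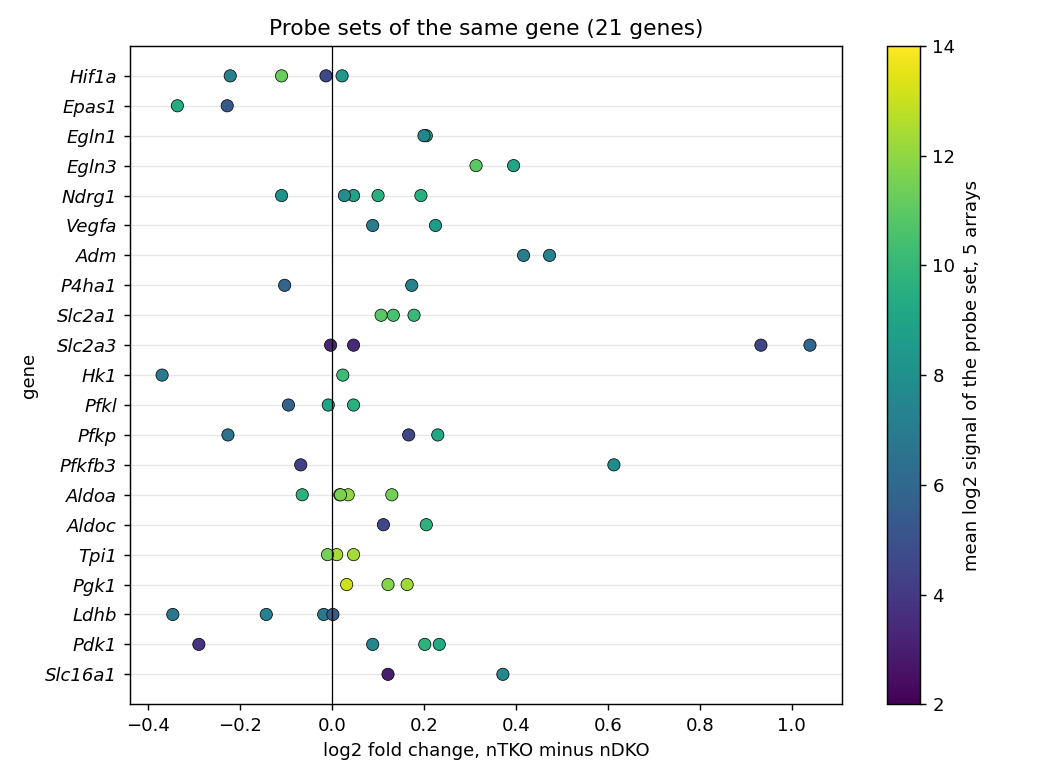
Log2 fold change of nTKO minus nDKO for every probe set of the 21 members with more than 1, coloured by its mean log2 signal over the 5 arrays. The dimmest probe sets of Slc2a3, Pfkfb3 and Pdk1 lie away from the brightest ones of the same genes.

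These genes varied widely between mice, and for 12 of the 33 members nDKO 1 and nTKO 1 were the 2 highest arrays. The range over the 5 arrays had a median of 0.60 over the members, 0.81 for the hypoxia genes and 0.48 for the glycolysis genes. It was 0.31 over all genes and 0.35 over genes at or above the median level. This range is taken over both genotypes, so it includes any gap between them. It reached 1 log2 unit for 5 members (15.2%, beside 7.41% of all genes), namely Hif1a, Adm, Car9, Slc2a3 and Slc16a1. For 12 of the 33 members (36.4%), nDKO 1 and nTKO 1 were the 2 highest arrays, beside 14.6% of all genes and 22.9% of genes at or above the median level. For 0 members were they the 2 lowest, beside 9.91% of all genes. The 12 were Hif1a, Ddit4, Ankrd37, Adm and Car9 of the hypoxia genes and Slc2a1, Slc2a3, Pgam1, Ldhb, Pdk1, Slc16a3 and Slc16a1 of the glycolysis genes. Arrays nDKO 1 and nTKO 1 were also the 2 highest for 8 of 15 TCA cycle genes and 3 of 6 pentose phosphate genes. So were they for 5 of 19 further hypoxia targets, 3 of 12 further oxygen-sensing genes and 2 of 14 other glycolysis genes. For pyruvate entry it was 2 of 11 genes, and for lactate and pH 1 of 6. The pattern is thus not confined to the members. All 8 squamous markers had the same 2 arrays highest, and their summed signal was 14.50 in nDKO 1, 12.00 in nDKO 2, 11.85 in nDKO 3, 14.05 in nTKO 1 and 10.94 in nTKO 2. All 5 epithelial markers, such as Krt8 and Epcam, were lowest on these arrays. A second group of 7 members (21.2%, beside 5.08% of all genes) was lowest in nDKO 1 and highest in nDKO 2, namely Ndrg1, P4ha2, Pfkl, Pfkp, Aldoa, Aldoc and Pgk1. Among single arrays, nDKO 2 was highest for 9 members (27.3%, beside 13.2% of all genes) and nDKO 1 lowest for 9 (27.3%, beside 30.6%). The array nTKO 1 alone was highest for 15 members (45.5%, beside 30.8% of all genes). Of 9 genes known to respond to tissue dissociation, 4 were highest in nTKO 1, and their summed signal lay between 12.56 and 13.29 on the 5 arrays. These counts were chosen after the values were seen. The part of squamous cells, neutrophils or dissociation in them was not tested, and nDKO 1 and nTKO 1 are also the oldest mice of their groups.

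**Figure D4:**
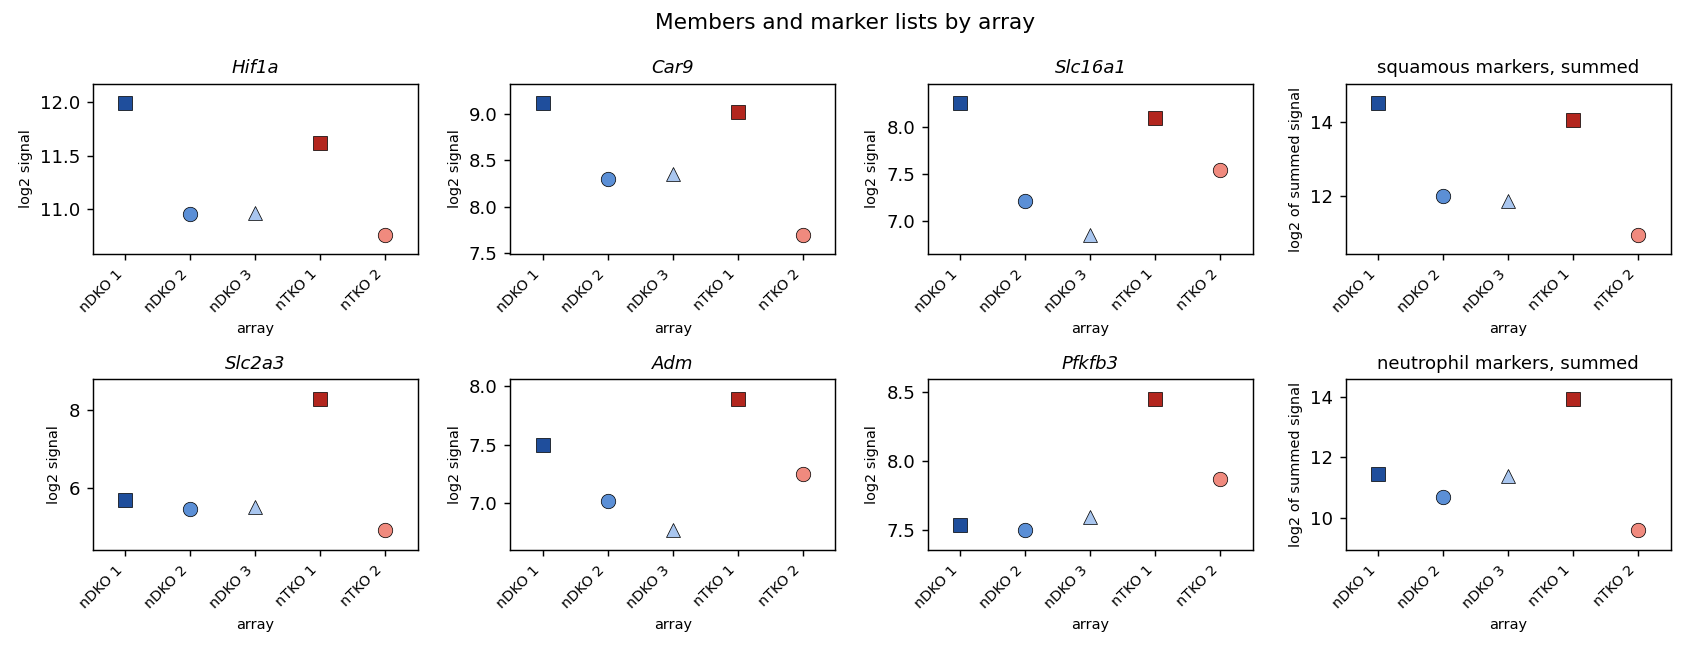
Log2 signal of 6 members and log2 of the summed signal of the squamous and neutrophil markers on each of the 5 arrays, with separate vertical axes that do not start at 0. Hif1a, Car9, Slc16a1 and the squamous markers are high in nDKO 1 and nTKO 1, and Slc2a3, Pfkfb3 and the neutrophil markers are highest in nTKO 1.

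Other genes of these pathways were counted from fixed lists, and none passed the limma test over all genes. Of 12 further genes of the oxygen-sensing machinery, 7 were higher (58.3%, beside 60.0% of all genes) and 4 lower, 0 with an unadjusted p under 0.05. The prolyl hydroxylase Egln2 was at 9.31, 9.48 and 9.53 in nDKO and at 8.91 and 9.29 in nTKO cells (-0.34, SE 0.15), below in both nTKO mice, and the difference was -0.15 without nTKO 1 and -0.01 once log2 age entered the fit. The HIF asparaginyl hydroxylase Hif1an (-0.18) and Hif3a (-0.17), each with at least 1 dimmer probe set of the opposite sign, came next. Of 19 further hypoxia targets measured, 13 were higher (68.4%) and 6 lower. Insig2 and Tfrc had an unadjusted p under 0.05, which is 10.5% of these targets beside 3.79% of all genes. Insig2, which holds back sterol synthesis, was at 9.49, 9.71 and 9.82 in nDKO and at 9.97 and 10.35 in nTKO cells. The groups were separate in all 3 of its probe sets, with log2 fold changes of 0.49, 0.52 and 0.46 (limma adjusted p = 0.853 for the first), and it was 0.30 without nTKO 2 and 0.85 once log2 age entered the fit. Tfrc, the transferrin receptor, differed by 0.16 and the chemokine receptor Cxcr4 by 0.56 with overlap (0.33 without nTKO 1).

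Of the lists that branch off glycolysis, the pentose phosphate list had 5 of 6 measured genes lower (83.3%, beside 38.3% of all genes), with a median of -0.079. Rpia (-0.045) and Taldo1 (-0.038) were lower by little, Rpe was higher (0.097), and G6pdx was not measured. Tkt, the transketolase of this pathway, was at 12.54, 12.50 and 12.43 in nDKO and at 12.07 and 12.26 in nTKO cells. Both nTKO mice were below every nDKO mouse, by -0.33 (SE 0.083, limma adjusted p = 0.853, unadjusted 95% interval -0.55 to -0.099), and by -0.40 in a second bright probe set. It was -0.20 without both nDKO 1 and nTKO 1. Pgls, the lactonase of the same pathway, was at 9.66, 9.80 and 9.72 in nDKO and at 9.32 and 9.58 in nTKO cells (-0.28, SE 0.10, -0.15 without nTKO 1 and -0.067 once log2 age entered the fit), and the dehydrogenase Pgd differed by -0.11. The other glycolysis genes had 9 of 14 higher, with Tigar at 0.23 (0.07 without nTKO 1), Hkdc1 at 0.20 and the dim Fbp1 at 0.90, which was 5.53 in nTKO 2 against 3.63 to 4.23 elsewhere. Genes of pyruvate entry had 9 of 11 higher, led by the kinase Pdk3 (0.29), the phosphatase Pdp1 (0.34) and the pyruvate carrier Mpc1 (0.24). Pdk3 was 0.17 without nDKO 1, Pdp1 0.09 without nTKO 1 and Mpc1 0.087 without nTKO 2. Genes of the TCA cycle had 7 higher and 8 lower, with Sdhc at -0.17, Suclg1 at 0.11 and Fh1 at 0.16. Among lactate and pH genes, 2 of 6 were higher. The carbonic anhydrase Car12 was at 11.17, 11.06 and 10.70 in nDKO and at 11.06 and 8.95 in nTKO cells, low in nTKO 2 as was Car9, so that its difference of -0.97 was 0.083 without that array. Slc16a7 differed by 0.33 (0.08 without nDKO 1) and Car14 by -0.055.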

How the data were processed

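RNA of EpCAM-isolated tumour cells was hybridised to single-channel Affymetrix arrays, 3 of nDKO and 2 of nTKO mice. Each probe set has a log2 value in the deposited table, computed by the authors with the Transcriptome Analysis Console and RMA per the submitters' processing notes. Their versions are not given in the sources used here. Since RMA brings the arrays to one distribution, a shift common to most genes cannot be measured. Depth is set by the number of arrays, which limits the precision. Of 45037 probe sets, 34945 had 1 gene symbol, 932 several and 9160 none. Gene identifiers of 34741 matched a gene table and 0 symbols were updated. A gene was represented by its single-symbol probe set with the highest mean.

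Genotypes were set against each other by limma 3.58.1 run in R 4.3.3 (lmFit, eBayes with an intensity trend, two-sided, Benjamini-Hochberg over 18193 genes, threshold 0.05), which was tested on simulated data. The fit had 3 residual and 1.23 prior degrees of freedom. Labels give separate mouse numbers, so arrays were taken as separate animals. All members were named, and of further lists the 3 genes with the smallest p. The members and lists were chosen with earlier results of these data known. The alternatives tried were leaving out mice, the replicate block, log2 age as a covariate, the mean of all probe sets, the pair of like age, eBayes with no trend, quantile normalization, median centring, and keeping genes at or above the median level of 6.32. Promoter sequences are from RefSeq. Some items are not reported here.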

Additional observations from a re-analysis of the deposited data

How the results depend on the processing

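With limma, the count of genes with an adjusted p under 0.05 was 0 in each refit that had a test, with a smallest adjusted p from 0.0513 (without nTKO 2) to 0.968. Of the 33 members, 9 kept the sign of their difference in the 13 refits that had a test, namely Ankrd37, Bnip3, Ddit4, Epas1, Ldha, Ldhb, Pfkfb3, Pfkfb4 and Vegfa. For Bnip3, Epas1, Ldha, Pfkfb3, Pfkfb4 and Vegfa the groups do not overlap, so leaving out arrays or the replicate block could not change the sign. The filter at the median level and eBayes with no trend leave the differences as they are. A kept sign is therefore in large part fixed in advance and is no separate support. In the pair of like age, which has no test, Ankrd37 was -0.11. The number of members with an unadjusted p under 0.05 was 3, and it was 10 without nDKO 1 and nTKO 1 together (30.3%, beside 16.5% of all genes in that fit), 0 with the replicate block (beside 5.04%) and 1 to 7 with 1 mouse left out. The 7 were found without nTKO 2 (21.2%, beside 15.9% of all genes), and the 1 without nDKO 2 (3.03%, beside 2.43%) and likewise without nDKO 3 (beside 3.0%). The hypoxia median was -0.032 with log2 age as a covariate, -0.07 without nDKO 1 and nTKO 1 together, 0 in the pair of like age and 0.02 to 0.39 with 1 mouse left out. The glycolysis median was -0.056, -0.043, -0.055 and 0.012 to 0.17 in the same settings. Some differences changed sign. With log2 age as a covariate these were Egln1 -0.032, Adm -0.22, P4ha1 -0.066, Slc2a1 -0.32, Slc2a3 -1.16, Hk1 -0.13, Hk2 -0.076, Pgam1 -0.27, Pdk1 -0.037, Slc16a3 -0.23, Slc16a1 -0.55, Pdp1 -0.035, Fh1 -0.036, Car14 0.038. After median centring, which lowers every difference alike, they were Hk1 -0.025, Hk2 -0.013, Pfkl -0.0017, Aldoa -0.032, Tpi1 -0.0017, Pgk1 -0.017, Eno2 -0.037, Slc16a3 -0.017, and after quantile normalization Eno2 -0.033, Slc16a3 -0.014. Without nDKO 1 and nTKO 1 together they were Egln3 -0.06, Ndrg1 -0.14, P4ha1 -0.07, Slc2a3 -0.58, Hk1 -0.20, Hk2 -0.065, Pfkp -0.025, Aldoa -0.035, Aldoc -0.055, Pgk1 -0.05, Pgam1 -0.06, Slc16a3 -0.15, Car14 0.02. Averaged over all probe sets they were Hk1 -0.17, Pfkl -0.019, Hif3a 0.042. Over the fits with 1 mouse left out, the values of members with a change of sign ran from -0.54 to 0.32 for Hif1a, from -0.035 to 0.38 for Ndrg1, from -0.89 to 0.43 for Car9, from -0.047 to 0.39 for P4ha1, from -0.12 to 0.025 for P4ha2, from -0.073 to 0.29 for Slc2a1, from -0.65 to 2.73 for Slc2a3, from -0.16 to 0.20 for Hk1, from -0.06 to 0.13 for Hk2, from -0.025 to 0.055 for Aldoa, from -0.035 to 0.09 for Pgk1, from -0.13 to 0.28 for Pgam1, from -0.27 to 0.30 for Eno2, from -0.14 to 0.057 for Pkm, from -0.16 to 0.23 for Slc16a3. Of the further lists, they ran from -2.03 to 0.083 for Car12 and from -0.13 to 0.02 for Car14. The cause of these changes was not tested.

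The replicate block gave Slc2a1 -0.065, Eno2 -0.10 and a hypoxia median of 0.22. It uses only replicates 1 and 2, since nDKO 3 has no partner, and equals the fit without nDKO 3 in its values. The labels do not say that a number marks a shared litter or day, and with 2 pairs the numbers were not taken as pairs. Deviations from the group means correlated at 0.42 for replicate 1 and 0.34 for replicate 2, but also at 0.31 for nDKO 3 with nTKO 2. The deviations of 2 nTKO arrays are mirror images, so these values cannot show a pairing. Settings that leave 1 nTKO array assume that it varies like the nDKO arrays. The 5 arrays limit what can be found.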
